A study of Mus musculus with 17 samples.

Results

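Alveolar epithelium moves salt across its surface, and water follows. The 8 genes described here code for channels, exchangers and a pump subunit of that transport, and they were measured in alveolar epithelial type 2 (AT2) cells sorted from mouse lung, which make surfactant and renew the alveolar lining. They are Scnn1a, Scnn1b and Scnn1g (the subunits of the epithelial sodium channel), Atp1b1 (a beta subunit of the sodium pump), Cftr, Slc26a4 and Slc26a9 (routes for chloride and other anions) and Slc12a2 (chloride uptake). The genes were chosen by name, and partly because the level of Slc26a4 was clearly higher after bleomycin. All 8 of the 8 symbols matched 1 row each among the 43430 gene rows of both count tables.

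The 17 libraries came from C57BL/6J mice aged 2 months and fall into 4 groups on 2 library kits. On the poly(A) kit, 4 libraries came from mice given vehicle and 4 from mice given ISRIB, a small molecule that counters the translational block of the integrated stress response, in both cases 24 h before sorting and without lung injury. On the total-RNA kit, 4 libraries came from uninjured (naive) mice and 5 from mice given bleomycin 14 days earlier, a drug that injures the alveolus and leads to lung fibrosis. The treatment label of all 9 total-RNA libraries is vehicle and their titles say saline, so naive and bleomycin mice share that control injection as far as the labels say. No dose of ISRIB or bleomycin is given in the labels. They also do not say that each library came from a separate mouse, so p-values measure the spread between these libraries, which may be partly technical. Each comparison was made within its kit, and levels are not tested across kits.

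In the alveolus, sodium enters epithelial cells through the epithelial sodium channel at the air-facing membrane, and the sodium pump exports it on the blood side. This flow draws fluid out of the airspace, and proteases, kinases and ubiquitin ligases set how much channel is active. Chloride can leave or enter through Cftr, a channel opened by cyclic AMP, and through the SLC26 family, in which Slc26a4 (pendrin) exchanges chloride for bicarbonate, iodide or thiocyanate and Slc26a9 carries chloride. Slc12a2 (NKCC1) loads chloride into the cell together with sodium and potassium.

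Libraries held 10493574 to 15727139 counts on the poly(A) kit and 3295257 to 6333166 on the total-RNA kit. Models of ribosomal RNA took 0.314% to 0.459% and 15.7% to 29.2% of them. The 8 AT2 markers were all detected in every library. Within the bleomycin group, 2 libraries stood apart. Levels in CPM are counts scaled to the library's effective size, which the section on processing defines. The AT2 markers summed to 45379 CPM in bleomycin 1 and 53814 in bleomycin 2, against 67873 to 80808 in the other 3 and 76321 to 83407 in the naive group. Fibroblast markers summed to 50.8 CPM and 115 CPM in the same libraries, against 17.0 to 25.0 in the other 3 and 2.68 to 9.06 in the naive group. Results for bleomycin are therefore also given without these 2 libraries. In bulk RNA from sorted cells, fewer cells of a type and less RNA per cell cannot be told apart.

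All 8 transport genes were detected in every library, over a wide range of levels. To compare genes with each other, CPM were divided by exonic length (CPM per kb). Atp1b1 had the highest level per kb in each of the 4 groups, from 279.5 ± 7.79 CPM per kb in naive (SD, n = 4) to 441 ± 16 in ISRIB (SD, n = 4). Scnn1g had the lowest in each group, from 1.48 ± 0.21 CPM per kb in naive (SD, n = 4) to 5.51 ± 1.88 in bleomycin (SD, n = 5). Slc12a2, Scnn1a and Slc26a9 held the next places in every group, in changing order. In naive libraries Slc26a9, at 70.1 ± 4.34 CPM per kb, was above Slc12a2, at 58.9 ± 1.08 (SD, n = 4), with no overlap between their libraries. In the bleomycin group the ranges of Scnn1a, Slc12a2 and Slc26a9 overlapped from neighbour to neighbour, so their order is not distinguished from the spread. Slc26a4 per kb lay below Cftr in every naive library, at 8.19 ± 1.89 against 15.3 ± 1.88 CPM per kb (SD, n = 4). It lay above Cftr in every bleomycin library, at 40.0 ± 6.66 against 13.5 ± 3.42 CPM per kb (SD, n = 5). Cftr and Scnn1b had overlapping ranges per kb in vehicle, ISRIB and bleomycin libraries, but not in naive ones.

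**Figure D1:**
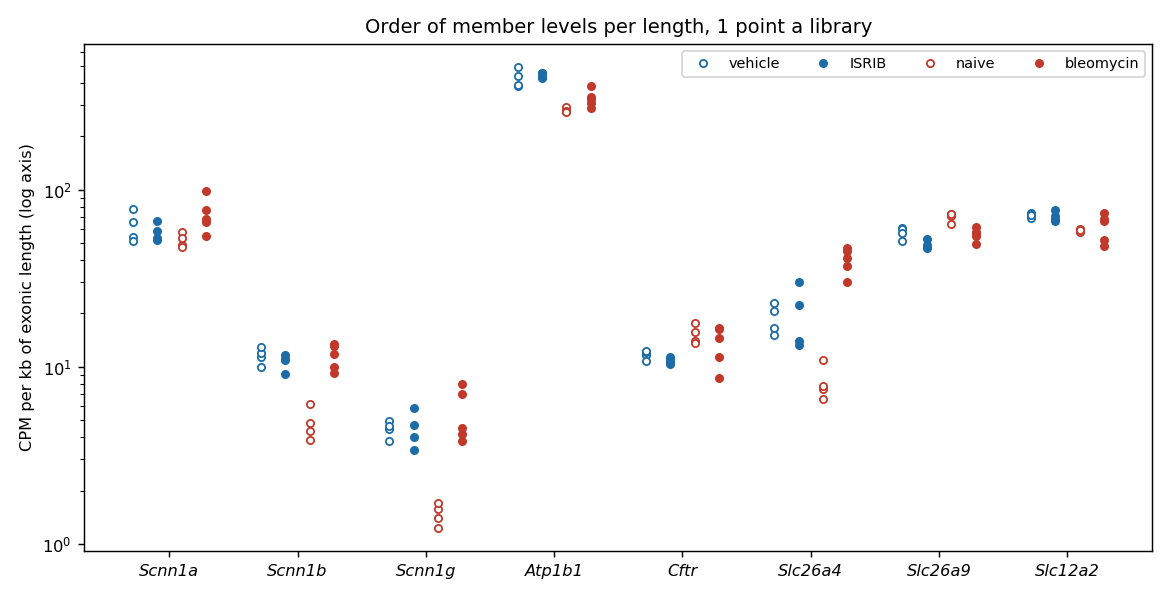
CPM per kb of exonic length (vertical log axis) for the 8 transport genes (horizontal axis), 1 point a library, with open points for vehicle and naive and filled points for ISRIB and bleomycin; blue is the poly(A) kit and red the total-RNA kit. Atp1b1 is highest and Scnn1g lowest in every group, and Slc26a4 lies below Cftr in naive libraries and above it in bleomycin libraries.

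ISRIB was compared with vehicle to see what the compound does to AT2 cells of uninjured lungs, and the choice of the 8 genes did not use this contrast. None of the 8 passed the test (edgeR's quasi-likelihood test, Benjamini-Hochberg adjustment over all 12054 genes tested, adjusted p under 0.05). Of all genes tested, 265 passed, or 2.20%, with 133 higher (1.10%) and 132 lower (1.10%), and the total was 86 without vehicle 1, 102 without vehicle 2 and 159 without ISRIB 4. Among the 8, the count at an unadjusted p below 0.05 was 1 (Slc26a9), beside 1934 of 12054 genes in all, or 16%. By DESeq2 with adjustment it was 1 (also Slc26a9), beside 4.10%, and by limma-voom it was 0, beside 2.11%. ISRIB and vehicle libraries overlapped for all 8 genes, while 8.65% of all genes tested had groups that did not overlap. The median log2 fold change of the 8 was -0.07, against -0.00014 over all genes tested.

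Slc26a9 came nearest to the threshold. It stood at 318, 314, 298 and 266 CPM in vehicle 1 to 4 and at 246, 275, 245 and 253 CPM in ISRIB 1 to 4. Vehicle 1, 2 and 3 were above every ISRIB library, and vehicle 4 lay inside the ISRIB range. The log2 fold change was -0.23 ± 0.06 (SE, n = 4 and 4), with an adjusted p of 0.0620 by edgeR. The call depended on single libraries: the edgeR adjusted p was 0.0170 without vehicle 4 and 0.0424 without ISRIB 2. Leaving out any other single library raised it, to between 0.0932 (without vehicle 3) and 0.194 (without vehicle 1).

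Slc26a4 stood at 70.9, 51.7, 47.1 and 64.5 CPM in vehicle 1 to 4 and at 41.4, 69.3, 43.3 and 93.4 CPM in ISRIB 1 to 4. The ISRIB libraries held both the lowest and the highest value of the set. The log2 fold change was 0.08 ± 0.20 (SE, n = 4 and 4; edgeR adjusted p = 0.903), and the approximate 95% interval of the difference ran from -19.6% to 38.4%. ISRIB 4, highest for Slc26a4, was also highest for Scnn1g at 17.5 CPM, and ISRIB 1 and 3, lowest for Slc26a4, held 11.9 and 10.1 CPM of Scnn1g.

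The sodium channel subunits overlapped between the groups. Scnn1a ran from 211 to 321 CPM in vehicle and from 215 to 273 CPM in ISRIB, with a log2 fold change of -0.12 ± 0.11 (SE, n = 4 and 4; edgeR adjusted p = 0.658). Vehicle 3 held the 321 CPM, and without it the log2 fold change was 0.01. Scnn1b ran from 26.1 to 34.2 CPM in vehicle and from 23.9 to 30.8 CPM in ISRIB (log2 fold change -0.11 ± 0.09, SE). Scnn1g ran from 11.4 to 14.9 and from 10.1 to 17.5 CPM (-0.01 ± 0.09, SE).

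Of the other genes, Atp1b1 had the highest counts and a log2 fold change of 0.05 ± 0.07 (SE, n = 4 and 4), with an approximate 95% interval from -5.60% to 14.1%. Cftr ran from 84.1 to 94.7 CPM in vehicle and from 80.5 to 88.7 CPM in ISRIB, with a log2 fold change of -0.11 ± 0.06 (SE) and an interval from -14.2% to 0.32%. Slc12a2 ran from 750 to 809 and from 726 to 834 CPM, with an interval from -8.76% to 5.66%. A p above the threshold does not show equal levels, and these intervals give the sizes that the data leave possible. Among cell type markers tested, 1 of 8 for AT2 (Etv5, log2 -0.28), 1 of 7 for airway (Tppp3, -0.43) and 1 of 3 for macrophages (Chil3, -1.84) passed as lower. Of all genes tested, 1.10% passed as lower. Airway markers summed to 2918 CPM in ISRIB 2 and 2122 CPM in ISRIB 4, against 3450 to 3829 CPM in vehicle, and 3788 and 3664 CPM in ISRIB 1 and 3. Their part in the levels of the 8 genes was not tested.

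**Figure D2:**
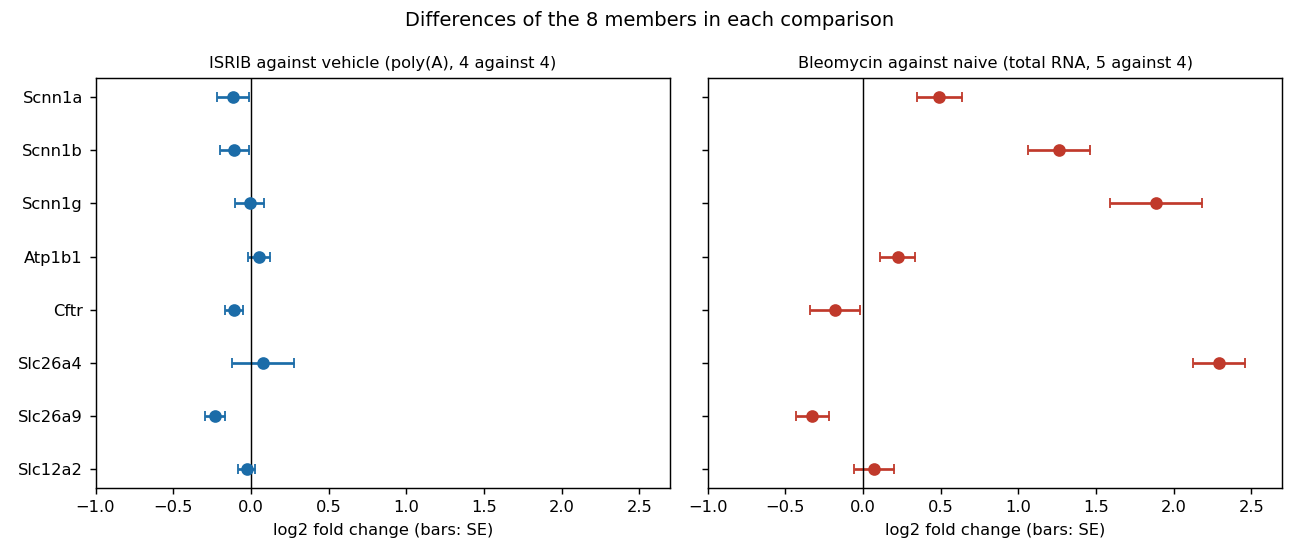
Log2 fold change (horizontal axis, bars are the SE) of each transport gene (rows) for ISRIB against vehicle in the left panel and bleomycin against naive in the right panel, on the same scale. The ISRIB values lie between -0.23 and 0.08, and the bleomycin values run from -0.33 for Slc26a9 to 2.29 for Slc26a4.

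Bleomycin was compared with naive to describe AT2 cells of the injured lung. Since the choice of genes used this contrast, their values here are a description and no p is given for them. The 3 sodium channel subunits and Slc26a4 were higher after bleomycin and Slc26a9 was lower, while Atp1b1, Cftr and Slc12a2 differed by no more than 0.22 on the log2 scale. By the same edgeR rule 5 of the 8 were past the threshold, 4 higher and 1 lower, and the count was 3 without naive 1 or without naive 4, when Scnn1a and Slc26a9 were no longer past it. Without bleomycin 1 and 2 together the count was 4, but Scnn1a and Slc26a9 were no longer past the threshold and Atp1b1 was, so that no lower gene was left among the 4. Of the 11223 genes tested, 2304 were past it, or 20.5%, with 11.2% higher and 9.31% lower. The libraries of the groups did not overlap for 4 of the 8 genes, and for 19.7% of all genes tested. The median log2 fold change of the 8 was 0.36, against 0.0026 over all genes.

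Slc26a4 had the largest difference of the 8 genes. Its level was 20.5, 23.3, 33.9 and 24.1 CPM in naive 1 to 4, from 61 to 113 counts, and 139, 146, 128, 93.4 and 116 CPM in bleomycin 1 to 5, from 302 to 825 counts. The lowest bleomycin library was far above the highest naive one. The level was 4.89-fold higher after bleomycin (log2 2.29 ± 0.17, SE, n = 5 and 4), and the log2 difference was 2.15 without bleomycin 1 and 2. Per kb of exon, Slc26a9 exceeded Slc26a4 by 8.94 ± 2.22 times in naive libraries (SD, n = 4; lowest 5.84) and by 1.43 ± 0.29 times after bleomycin (SD, n = 5; highest 1.82). The gene lies on the minus strand of chromosome 12, at 31519827 to 31559969 (GRCm38).

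Scnn1g, the gamma subunit of the sodium channel, had the second largest difference. It stood at 3.69, 4.70, 5.10 and 4.17 CPM in naive 1 to 4 and at 20.9, 24.0, 12.5, 11.4 and 13.5 CPM in bleomycin 1 to 5. The naive values rest on 11 to 22 counts a library and the bleomycin values on 37 to 133, so this is the least precise of the 8. The 2 highest libraries were bleomycin 1 and 2, and the other 3 were also above every naive library. The level was 3.70-fold higher (log2 1.89 ± 0.30, SE, n = 5 and 4), with a log2 difference of 1.5 without those 2 libraries.

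Scnn1b, the beta subunit, stood at 11.4, 16.2, 12.6 and 10.1 CPM in naive 1 to 4 and at 24.3, 34.7, 31.3, 26.3 and 35.3 CPM in bleomycin 1 to 5. The groups did not overlap, and bleomycin 1 and 2 were not the extremes: bleomycin 1 was lowest and bleomycin 5 highest. The level was 2.40-fold higher (log2 1.26 ± 0.20, SE, n = 5 and 4), and 1.29 on the log2 scale without bleomycin 1 and 2. Scnn1b and Scnn1g are neighbours on chromosome 7, both on the plus strand, at 121865038 to 121918514 and at 121734479 to 121768475, with 96562 bases between them.

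Scnn1a, the alpha subunit that the channel needs to conduct, had the highest level of the 3 and the smallest difference. It stood at 201, 238, 196 and 219 CPM in naive 1 to 4 and at 318, 405, 282, 226 and 271 CPM in bleomycin 1 to 5. Bleomycin 4 lay inside the naive range. The level was 1.41-fold higher (log2 0.49 ± 0.14, SE, n = 5 and 4), and the log2 difference was 0.29 without bleomycin 1 and 2, which were the 2 highest libraries. It was not past the threshold without naive 1, 3 or 4, with log2 differences from 0.45 to 0.50, nor without bleomycin 1 and 2. Scnn1a lies on chromosome 6 at 125320659 to 125344943.

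Because the 3 subunits differed by unequal amounts, their proportions also differed between the groups. Per kb of exon, Scnn1a exceeded Scnn1g by 39.4, 36.7, 27.8 and 38.1 times in naive 1 to 4 and by 11, 12.2, 16.2, 14.3 and 14.6 times in bleomycin 1 to 5. The Scnn1a to Scnn1b ratio was 11.1 ± 1.98 in naive (SD, n = 4) and 6.38 ± 1.45 after bleomycin (SD, n = 5), also without overlap, since the lowest naive ratio was 9.34 and the highest bleomycin ratio 8.33. For Scnn1b to Scnn1g the ratio was 3.25 ± 0.57 against 2.28 ± 0.75 (SD), and the libraries overlapped. In the poly(A) libraries the Scnn1a to Scnn1g ratio was 13.8 ± 1.48 in vehicle and 13.5 ± 4.07 in ISRIB (SD, n = 4 each), a value set on another kit and not compared with the total-RNA one.

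**Figure D3:**
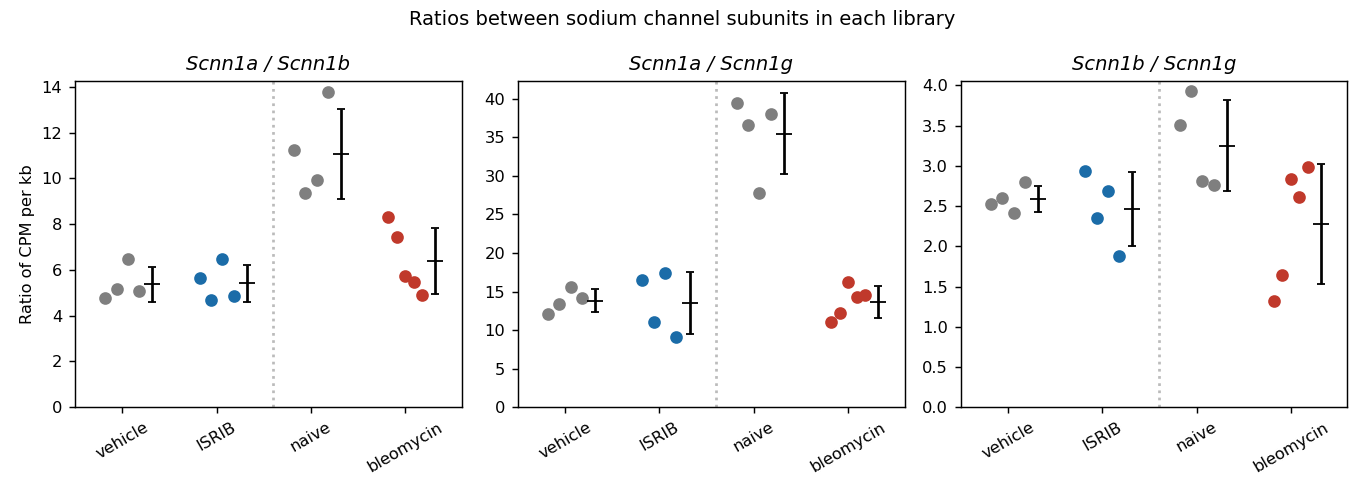
Ratio of CPM per kb (vertical axis, from 0) between sodium channel subunits, 1 point a library, with the mean and SD of each group beside its points; the dotted line separates the poly(A) kit from the total-RNA kit. The Scnn1a to Scnn1g ratio is 27.8 or higher in every naive library and 16.2 or lower in every bleomycin library, while vehicle and ISRIB libraries overlap.

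Slc26a9 was the one gene of the 8 that was lower after bleomycin without overlap. It stood at 382, 371, 333 and 379 CPM in naive 1 to 4 and at 295, 257, 322, 286 and 299 CPM in bleomycin 1 to 5. The gap between the groups was narrow, from 322 to 333 CPM. Naive levels were 1.25-fold those after bleomycin (log2 difference -0.33 ± 0.11, SE, n = 5 and 4), and -0.27 without bleomycin 1 and 2. It was not past the threshold without those 2, with no filter on low counts, or without naive 1, 2 or 4 or bleomycin 2 or 5, with log2 differences from -0.33 to -0.27. The gene lies on chromosome 1 at 131744022 to 131771504.

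Cftr, Slc12a2 and Atp1b1 overlapped between the groups. Cftr stood at 108, 122, 138 and 106 CPM in naive 1 to 4 and at 87.8, 67.1, 113, 128 and 127 CPM in bleomycin 1 to 5. Bleomycin 1 and 2 were the 2 lowest of the 9 libraries and the other 3 lay inside the naive range. The log2 difference was -0.18 ± 0.16 (SE, n = 5 and 4) with all libraries and 0.05 without those 2. Slc12a2 followed the same libraries: it was 626 to 654 CPM in the naive group, 568 and 527 CPM in bleomycin 1 and 2, and 746, 802 and 730 CPM in bleomycin 3 to 5. The log2 difference of Slc12a2 was 0.07 ± 0.13 (SE) with all libraries and 0.24 without bleomycin 1 and 2. Atp1b1 ran from 841 to 896 CPM in the naive group and from 888 to 1175 CPM after bleomycin, with bleomycin 1 the lowest of its group. Its log2 difference was 0.22 ± 0.11 (SE), and 0.29 without the 2 libraries. Of the 3081 exonic bases of Atp1b1, 575 overlap exons of Nme7 on the opposite strand, and no source here says whether reads were counted by strand, so reads of the 2 genes may not be told apart there.

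**Figure D4:**
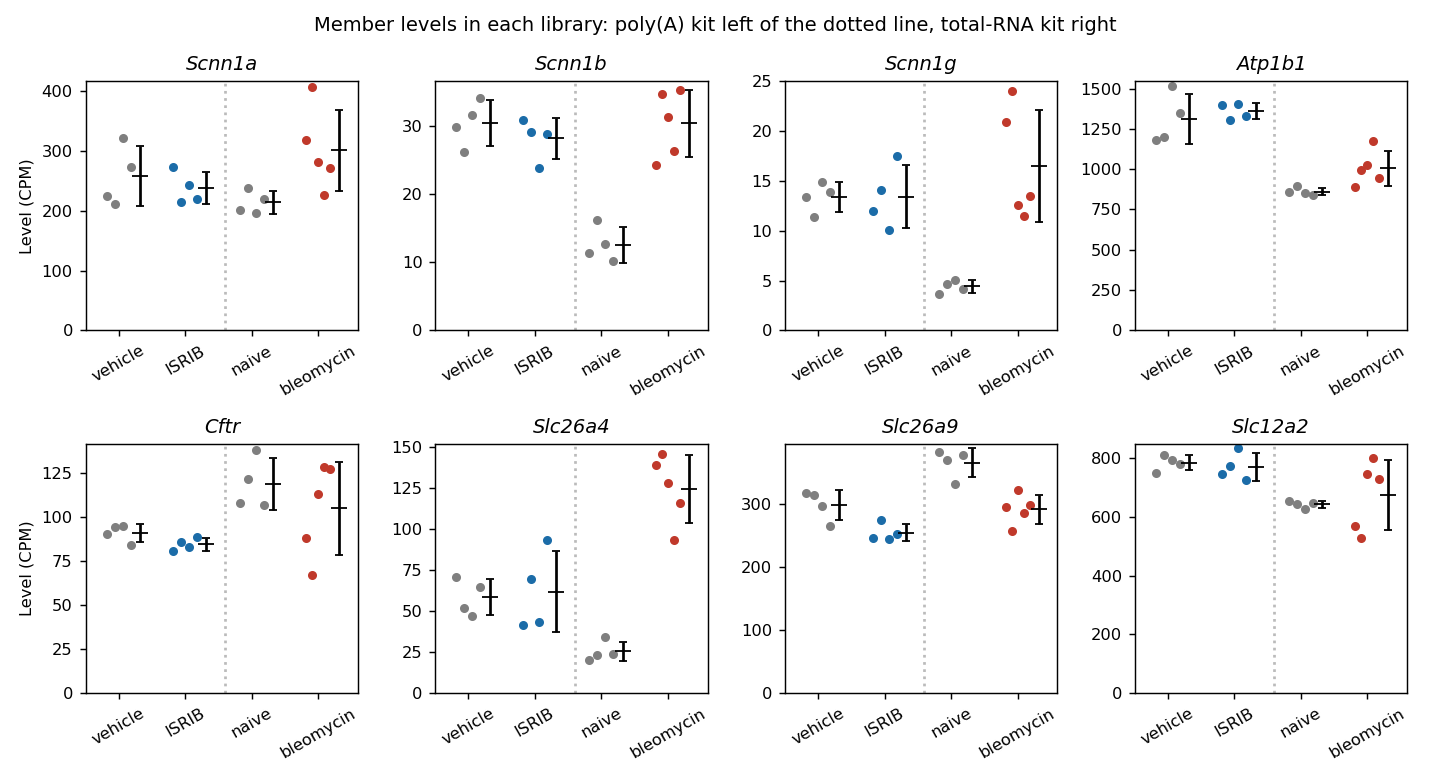
Level of each transport gene in every library (vertical axis, CPM, from 0), 1 panel a gene, with the mean and SD beside the points; the dotted line separates the poly(A) kit from the total-RNA kit. Scnn1b, Scnn1g and Slc26a4 are higher in every bleomycin library than in any naive one, Slc26a9 is lower, and vehicle and ISRIB overlap in all 8 panels.

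The 4 genes whose naive and bleomycin libraries did not overlap are shown here with the 250 bases before their annotated start, to let a reader set their promoters side by side. RefSeq (GRCm38.p6) had an entry for 6 of the 8 genes. Each sequence is printed 5′ to 3′ on the strand of its gene, with matches to any of the 8 motifs searched in capitals, and positions count from the start site as +1 with the base before it as -1. The stretches are chr12:31559985-31560234 on the minus strand for Slc26a4, and on the plus strand chr7:121734229-121734478 for Scnn1g, chr7:121864788-121865037 for Scnn1b and chr1:131743772-131744021 for Slc26a9.
Slc26a4: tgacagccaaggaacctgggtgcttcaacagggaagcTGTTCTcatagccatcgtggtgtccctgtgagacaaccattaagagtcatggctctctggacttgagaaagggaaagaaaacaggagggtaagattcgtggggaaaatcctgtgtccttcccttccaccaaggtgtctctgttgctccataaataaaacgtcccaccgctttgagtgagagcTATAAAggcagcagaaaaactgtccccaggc
Scnn1g: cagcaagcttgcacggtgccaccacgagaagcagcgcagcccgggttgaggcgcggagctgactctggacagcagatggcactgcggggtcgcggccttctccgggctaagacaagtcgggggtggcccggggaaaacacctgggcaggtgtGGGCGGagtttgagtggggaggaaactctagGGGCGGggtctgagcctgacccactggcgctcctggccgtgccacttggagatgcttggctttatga
Scnn1b: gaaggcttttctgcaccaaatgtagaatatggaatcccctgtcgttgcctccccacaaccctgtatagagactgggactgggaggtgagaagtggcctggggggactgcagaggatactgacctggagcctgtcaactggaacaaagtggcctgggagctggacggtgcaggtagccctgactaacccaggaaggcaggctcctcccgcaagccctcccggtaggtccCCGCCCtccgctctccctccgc
Slc26a9: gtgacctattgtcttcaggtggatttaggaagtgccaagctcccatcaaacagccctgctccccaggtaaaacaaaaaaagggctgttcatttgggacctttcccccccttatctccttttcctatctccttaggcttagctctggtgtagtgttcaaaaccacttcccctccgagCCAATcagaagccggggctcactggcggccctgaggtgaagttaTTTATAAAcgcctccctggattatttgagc

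The 4 promoters differed in the letters near their start. Slc26a4 and Slc26a9 each held the TATA box letters TATAAA near the start, at -31 to -26 and at -28 to -23, while Scnn1b and Scnn1g held none and had the GC box letters GGGCGG instead, at -22 to -17 (on the minus strand) and at -98 to -93 and -67 to -62. Over the window from 250 bases before to 50 after the start, the GC content was 50% for Slc26a4 and 52.0% for Slc26a9, and 61.7% for Scnn1b and 64.7% for Scnn1g, against a median of 53.0% over all 32544 promoters. Slc26a9 also held a CCAAT box at -74 to -70, and Slc26a4 a minus-strand match to the steroid receptor half-site AGAACA at -213 to -208. In the 3 other motifs with a factor's name, TGANTCA (AP-1), GGAATG (TEAD) and TGTTTA (forkhead), and in TTC and GAA with 4 bases between (the spacing bound by STAT6), none of these 4 windows had a match. Of all promoters of the same length, on both strands, 13.6% held TATAAA, 35.9% GGGCGG, 37.4% CCAAT, 18.9% AGAACA, 7.79% TGANTCA, 14.6% GGAATG, 13.4% TGTTTA and 6.98% the STAT6 spacing. A match in letters is a description of these windows and not a bound site.

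A wider list of 65 other genes of alveolar ion and fluid transport gives the setting. It was drawn up with earlier results of these data known, so its counts and p-values are read as a description. After bleomycin 47 of the 65 genes were tested, 11 rose and 3 fell, with a median log2 fold change of 0.17 against 0.0026 over all genes. As shares of the 47 these counts stand beside the 11.2% higher and 9.31% lower of all genes tested. Atp1b3, another beta subunit of the sodium pump, ran from 48.0 to 67.5 CPM in naive and from 42.1 to 51.8 CPM after bleomycin (log2 -0.38 ± 0.14, SE; edgeR adjusted p = 0.0581), and passed the threshold without naive 4 (-0.47, adjusted p = 0.0366).

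Of the 10 genes tested that control the sodium channel inside the cell, 2 fell and 0 rose, beside 9.31% and 11.2% of all genes. Nedd4l, a ubiquitin ligase that removes the channel from the membrane, fell: it ran from 203 to 248 CPM in naive and from 125 to 205 CPM after bleomycin (log2 -0.53 ± 0.14, SE; edgeR adjusted p = 0.0123), and was at -0.55 without bleomycin 1 and 2. Nr3c2, the mineralocorticoid receptor through which aldosterone acts on the channel, fell from 25.5 to 31.9 CPM in naive to 7.40 to 19.5 CPM after bleomycin (log2 -0.98 ± 0.23, SE; edgeR adjusted p = 0.00591). The 2 lowest Nr3c2 libraries were bleomycin 1 and 2, and without them the log2 fold change was -0.69 (adjusted p = 0.0125). Sgk1, a kinase that keeps Nedd4l off the channel, ran from 0.894 to 3.69 CPM in naive and from 3.70 to 7.44 CPM after bleomycin. These levels are low, and the naive ones rest on few counts. The Sgk1 log2 fold change was 1.20 ± 0.46 (SE; edgeR adjusted p = 0.0734). Its edgeR adjusted p was 0.0498 without bleomycin 1 and 0.0457 without bleomycin 1 and 2 (log2 1.39).

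Of the membrane proteases and inhibitors that act on the channel, 2 of the 8 tested rose and 0 fell, beside 11.2% and 9.31% of all genes. St14 (matriptase) rose from 94.0 to 109 CPM in naive to 117 to 153 CPM (log2 0.46 ± 0.11, SE; edgeR adjusted p = 0.00757). Serpine2, a secreted inhibitor of serine proteases, rose from 32.9 to 38.2 CPM to 53.2 to 76.0 CPM (log2 0.86 ± 0.14, SE; edgeR adjusted p = 0.000199). Prss8 (prostasin, a protease that activates the channel) and Spint2 (its inhibitor) did not pass, with log2 values of -0.10 ± 0.14 and 0.09 ± 0.11 (SE).

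Ano1, a chloride channel opened by calcium, had the largest log2 fold change among the genes of this wider list that passed the test. It ran from 21.1 to 33.8 CPM in naive and from 78.7 to 112 CPM after bleomycin, 3.11-fold higher (log2 1.63 ± 0.16, SE, n = 5 and 4; edgeR adjusted p = 1.15e-06), and its log2 fold change was 1.6 without bleomycin 1 and 2. Slc9a3r1, a scaffold that binds Cftr, rose at log2 0.69 ± 0.14 (SE; edgeR adjusted p = 0.00174), and Kcnk1, a potassium channel, at 0.65 ± 0.14 (SE; adjusted p = 0.00246). Slc12a7, a potassium chloride cotransporter, rose at log2 0.77 ± 0.16 (SE; edgeR adjusted p = 0.00274). Ano1, Slc9a3r1, Kcnk1, Slc12a7, Serpine2, St14 and Nr3c2 were named because they passed this test, so their p-values are selected. Slc26a2 (a sulfate transporter) and Car2 (carbonic anhydrase) were also named after their values were seen. Slc26a2 rose at log2 0.44 ± 0.15 and Car2 at 0.42 ± 0.13 (SE; edgeR adjusted p = 0.0386 and 0.0249). The call on Slc26a2 was lost without any of naive 1 to 4 or bleomycin 1 to 3 (log2 0.30 to 0.50) and without bleomycin 1 and 2 together (0.32), and the call on Car2 without naive 1, 3 or 4 or bleomycin 2 (0.34 to 0.41). The oxidases Duox1 and Duox2, which use the thiocyanate or iodide that pendrin moves, were too low to test, at no more than 2 counts summed over any group.

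Among water and phosphate transport genes, Aqp5, a water channel listed here as an alveolar type 1 marker, rose from 253 to 286 CPM in naive to 324 to 539 CPM after bleomycin (log2 0.56 ± 0.14, SE; edgeR adjusted p = 0.00687). Slc34a2, the sodium phosphate carrier of AT2 cells and one of their markers here, ran from 9544 to 10039 CPM and from 7423 to 9670 CPM (log2 -0.16 ± 0.13, SE; edgeR adjusted p = 0.393). The lowest Slc34a2 libraries were bleomycin 1 and 2, and the log2 value was -0.06 without them. Also without them, the log2 fold changes of the other genes named above were 0.64 for Aqp5, 0.85 for Serpine2, 0.42 for St14, 0.65 for Slc9a3r1, 0.70 for Kcnk1, 0.55 for Slc12a7 and 0.35 for Car2, all past the threshold, and -0.29 for Atp1b3, -0.14 for Prss8 and 0.18 for Spint2, which were not.

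After ISRIB 49 of the 65 genes were tested, 0 rose and 1 fell, beside 1.10% of all genes in each direction, with a median log2 fold change of 0.01. At an unadjusted p under 0.05 there were 12 of the 49, beside 16% of all genes, and DESeq2 called 3, beside 4.10%. The gene that fell was Serpine2, from 76.2 to 92.9 CPM in vehicle to 60.5 to 77.2 CPM in ISRIB (log2 -0.34 ± 0.08, SE, n = 4 and 4; edgeR adjusted p = 0.0335). Vehicle 3 lay inside the ISRIB range. The call was lost without vehicle 1, 2 or 4 or without ISRIB 2 or 4, with log2 values from -0.36 to -0.29. The named regulators and carriers did not pass: the log2 fold changes were -0.07 ± 0.06 for Nedd4l, 0.15 ± 0.16 for Sgk1, -0.14 ± 0.08 for Prss8, -0.01 ± 0.05 for Spint2, -0.08 ± 0.06 for Atp1b3, -0.04 ± 0.05 for Slc34a2 and -0.06 ± 0.05 for Aqp5 (SE, n = 4 and 4).

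Markers of other cell types also moved with the bleomycin group. The 8 alveolar type 1 markers, which include Aqp5, summed to 1091 to 1317 CPM in naive libraries and 1751 to 2299 CPM after bleomycin. The test called 6 of the 8 higher, beside 11.2% of all genes tested. All 3 fibroblast markers tested, of 6 listed, also rose, beside the same 11.2%, and Lum was at 0 in every total-RNA library. Endothelial markers summed to 15.5 to 23.7 CPM and 17.5 to 67.8 CPM, and 2 of the 4 tested rose, again beside 11.2%. Bulk RNA cannot tell whether these markers came from other cells or from the sorted AT2 cells themselves. The part of either in the levels of the 8 transport genes was not tested. Summed macrophage markers overlapped, at 6.41 to 9.73 and 6.33 to 10.6 CPM. Ionocytes, the airway cells with very high Cftr, left little trace. Their 7 markers summed to no more than 8.73 CPM in total-RNA libraries and 10.1 CPM in poly(A) libraries. Foxi1 was at 0 in every bleomycin and every poly(A) library and had 1 count in all naive libraries together. Airway markers summed to 414 to 859 CPM in naive and 491 to 852 CPM after bleomycin, and 1 of the 6 tested rose, beside 11.2% of all genes. Of the 8 AT2 markers, 2 passed the test as lower, beside 9.31% of all genes tested. Without bleomycin 1 and 2, the 2 libraries of highest fibroblast sums, the log2 differences were 2.15 for Slc26a4, 1.5 for Scnn1g, 1.29 for Scnn1b, 0.29 for Scnn1a and Atp1b1, 0.24 for Slc12a2, 0.05 for Cftr and -0.27 for Slc26a9. The libraries kept, bleomycin 3 to 5, still exceeded every naive library in fibroblast markers, at 17.0 to 25.0 against 2.68 to 9.06 CPM. Their alveolar type 1 sums, at 1751 to 2141 CPM, were also above every naive one, and bleomycin 5 had the highest endothelial sum (67.8 CPM).

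**Figure D5:**
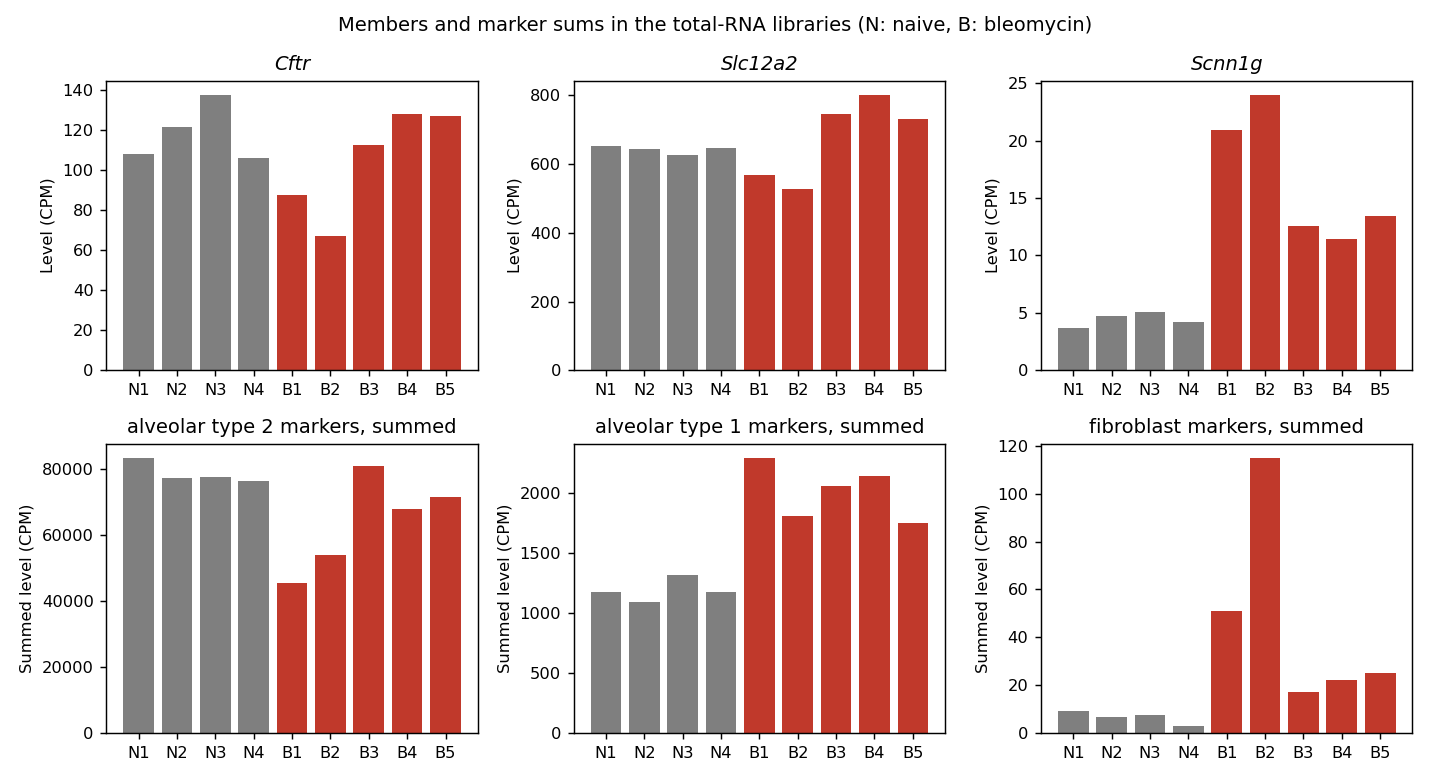
Levels of Cftr, Slc12a2 and Scnn1g (upper row, CPM) and summed CPM of alveolar type 2, alveolar type 1 and fibroblast markers (lower row) in each total-RNA library, with N for naive and B for bleomycin; all bars start at 0. Bleomycin 1 and 2 have the lowest AT2 sums (45379 and 53814), the highest fibroblast sums (50.8 and 115), the lowest Cftr and Slc12a2 and the highest Scnn1g.

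Over the 9 total-RNA libraries, genes were ranked by the Pearson correlation of their log2 CPM with each transport gene, as a description that carries the difference between the groups and any difference in cell makeup. The 5 genes most like Slc26a4 were Snx7 (r = 0.990), Trp53inp2 (0.989), Itm2a (0.984), Itga3 (0.983) and Cct3 (0.983). All 5 had higher means after bleomycin, from 2.93 to 43.0 CPM for Itm2a and from 74.8 to 158 CPM for Itga3. For Scnn1g the nearest were Flna (0.995) and Lamc1 (0.986), and for Scnn1b they were B2m (0.985) and Tnfrsf9 (0.982). Scnn1a was followed most closely by Sec61a1 (0.972) and Tor1aip2 (0.967), and Atp1b1 by Tubg1 (0.984) and Psma7 (0.966). Slc26a9 was nearest to Epha7 (0.974) and Zbtb10 (0.968), both lower after bleomycin in the mean. For the genes that tracked bleomycin 1 and 2 rather than the groups, the nearest were Elmo2 (0.956) and Smad6 (0.949) for Cftr and Apoe (0.962) and Cyb5b (0.958) for Slc12a2.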

How the data were processed

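RNA sequencing of sorted mouse AT2 cells gave 17 libraries. The authors deposited whole-number counts for each gene in 1 table per kit, with no normalisation. Per the submitters' processing notes, reads were handled with bcl2fastq 2.19.1, Trimmomatic 0.36, STAR 2.6.0 and HTSeq 0.11.2 on mm10. Which annotation was counted, and whether by strand, is not given in the sources. Gene IDs were matched to GENCODE M21 (GRCm38) for symbols, positions and exonic lengths, and 42546 of 43430 IDs had a symbol.

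Groups follow the labels. Genes with low counts were removed by filterByExpr (at least 10 counts, 15 in total). With edgeR 4.0.16 (R 4.3.3), TMM factors were computed and a quasi-likelihood F test, two-sided, was fitted to each kit alone with group as its term. Benjamini-Hochberg adjustment covered all genes tested. An SE was taken as the unshrunk log2 fold change over the square root of F, and approximate intervals are 1.96 SE to each side. CPM use effective library sizes, which are the totals after the filter times the TMM factors. The fit was tested on simulated data. Alternatives were DESeq2 1.42.0 and its size factors, limma-voom (limma 3.58.1), no filter on low counts, a replicate block, leaving out each library, and leaving out ribosomal RNA gene models. Leaving out bleomycin 1 and 2 together was added after seeing the data.

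The members and lists were chosen with earlier results of these data known. The text names all 8 members, a panel of other transport genes (Atp1b3, Nedd4l, Sgk1, Prss8, Spint2, Slc34a2, Aqp5), up to 8 called genes of the wider list with the lowest p per comparison, and the genes most like each member (5 for Slc26a4, 2 for each other) among those with a mean of at least 5 CPM (log2 CPM with a prior count of 2). Gene models without an approved-style name and pseudogenes were passed over, and a few genes that this rule would name are not reported here. Promoters are RefSeq's windows from 250 bases before to 50 after each start.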

Additional observations from a re-analysis of the deposited data

Results flagged for a closer look

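In groups of 4 or 5 libraries, 6 of 80 sets of values tested held 1 library far from the rest by Dixon's criterion, which chance meets in about 1 in 20, and none was of the 8 transport genes. Car2 stood at 95.3 CPM in bleomycin 2 (the other 4 libraries 69.9 to 76.7). Naive libraries held Slc26a2 at 46.2 CPM in naive 3 (68.8 to 72.0) and Spint2 at 153 CPM in naive 4 (181 to 183). On the poly(A) kit they were Aqp5 at 485 CPM in ISRIB 1 (433 to 441), Slc34a2 at 16089 CPM in ISRIB 2 (16893 to 16904) and Atp1b3 at 153 CPM in vehicle 4 (135 to 138).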

How the results depend on the processing

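For ISRIB against vehicle, the count of genes past the threshold (265) was 648 with no filter on low counts and ran from 86 (without vehicle 1) to 269 when 1 library was left out, with 102 without vehicle 2 and 159 without ISRIB 4. Of the 8 transport genes 1 passed with no filter and 1 by DESeq2, and 0 to 1 without 1 library. Of the wider list 2 passed with no filter and 3 by DESeq2, and 0 to 1 without 1 library. For bleomycin against naive, leaving out 1 library gave 1554 to 2584 genes, 3 to 5 of the 8 and 10 to 15 of the wider list. Without naive 1 or naive 4 the 3 were Scnn1b, Scnn1g and Slc26a4. Without bleomycin 1 and 2 together the counts were 2298, 4 (Scnn1b, Scnn1g, Slc26a4 and Atp1b1) and 14. With a replicate block they were 277, 0 and 1 for ISRIB and 2187, 4 (Slc26a9 was not past the threshold) and 14 for bleomycin. Same-numbered libraries had correlations of their deviations from -0.109 to 0.0849, and differently numbered ones from -0.164 to 0.137. The labels do not say whether equal numbers mark pairs, and these correlations cannot settle it.

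Some log2 differences near 0 changed sign when 1 library was left out. For ISRIB these were Scnn1a (-0.20 to 0.012, above 0 without vehicle 3), Slc12a2 (-0.065 to 0.0024) and Spint2 (-0.044 to 0.0089), both above 0 without ISRIB 4, Scnn1g (-0.15 to 0.10) and Slc26a4 (-0.19 to 0.24). For bleomycin it was Prss8 (-0.18 to 0.0090, above 0 without naive 1), and Cftr was at 0.052 without bleomycin 1 and 2. The cause was not tested. Slc26a9 passed for ISRIB with no filter (edgeR adjusted p = 0.0056) and by DESeq2 (0.0148).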
